A study of Homo sapiens with 2 samples.

Results

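The 70 genes described here are the changed genes of the KEGG pathway Protein processing in endoplasmic reticulum (ER) in SNU-449, an established line of human liver cancer (hepatocellular carcinoma), after 24 h with ezetimibe. They were chosen from the authors' deposited table, by taking every gene that its row for this pathway lists as changed and leaving out those that the Cell cycle row also lists (CUL1 and RBX1), as well as the kinases MAPK9 and MAPK10. The members are 70 of the 2238 distinct genes that the table lists as changed under 327 pathways. RNA was compared between 1 culture treated with ezetimibe for 24 h and 1 control culture of the same line, with no further agent or allele named in the labels. Ezetimibe lowers blood cholesterol by blocking NPC1L1, a transporter that takes up sterols. The labels used here state neither its dose nor a vehicle or culture time for the control culture. With 1 library per condition no difference has a replicate check, and no test was made. The table gives each changed gene a direction and holds no level or fold change, and the read depth is unknown. The comparison names the ezetimibe culture before the control, and up was therefore taken to mean higher after ezetimibe. In bulk RNA, fewer cells of a type and less RNA per cell cannot be told apart. The table lists changed genes alone, so that the labelled liver origin could not be checked against marker levels. Of 17 markers of hepatocytes, fibroblasts, immune and endothelial cells, 0 were listed as up, 7 as down (the hepatocyte genes CPS1, FGA, FGB and FGG and the fibroblast genes COL1A1, COL1A2 and ACTA2) and 10 not at all; their part in the results was not tested.

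Proteins bound for secretion or for membranes enter the ER through the Sec61 channel, receive N-linked glycans and fold with the help of chaperones and disulfide-forming enzymes. Correctly folded cargo leaves in COPII-coated vesicles, and misfolded chains are returned to the cytosol and degraded, a route called ER-associated degradation (ERAD). When unfolded chains accumulate, the sensors PERK, IRE1 and ATF6 start the unfolded protein response, which slows translation and raises the transcription of chaperone and ERAD genes. Hepatocytes, which secrete most plasma proteins, depend on this system, and liver cancer cells keep much of it.

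In the authors' deposited table, 49 of the 70 members were listed as up after ezetimibe and 21 as down. The share up was 70.0%, with a 95% interval of 57.9 to 80.4 (Clopper-Pearson, exact, covering counting error among genes alone). Over all pathway genes of the table, 25.2% of 8877 were listed as changed, 8.20% as up and 17.0% as down. Among the other 2168 listed genes 679 were up and 1489 down, a share up of 31.3% (29.4 to 33.3). Members were chosen because they were listed as changed in this same contrast, so these shares describe the members and carry no test. CUL1, RBX1, MAPK9 and MAPK10, which the choice of members left out, were all listed as down. With them the pathway row held 49 genes up and 25 down (66.2% up, 54.3 to 76.8). In the authors' deposited table that row had 74 changed genes of 190 background genes (38.95%). Its rich factor, the share of changed genes in the row over the share of background genes in it, was 1.54. The authors' enrichment gave p = 0.00042 and q = 0.00625. The row stood at place 22 of 327 by p and at place 59 by rich factor. The rich factor was higher in the rows Protein export (1.725), SNARE interactions in vesicular transport (1.75) and Ubiquitin mediated proteolysis (1.587). It was lower in N-Glycan biosynthesis (1.449) and Proteasome (0.7437).

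**Figure D1:**
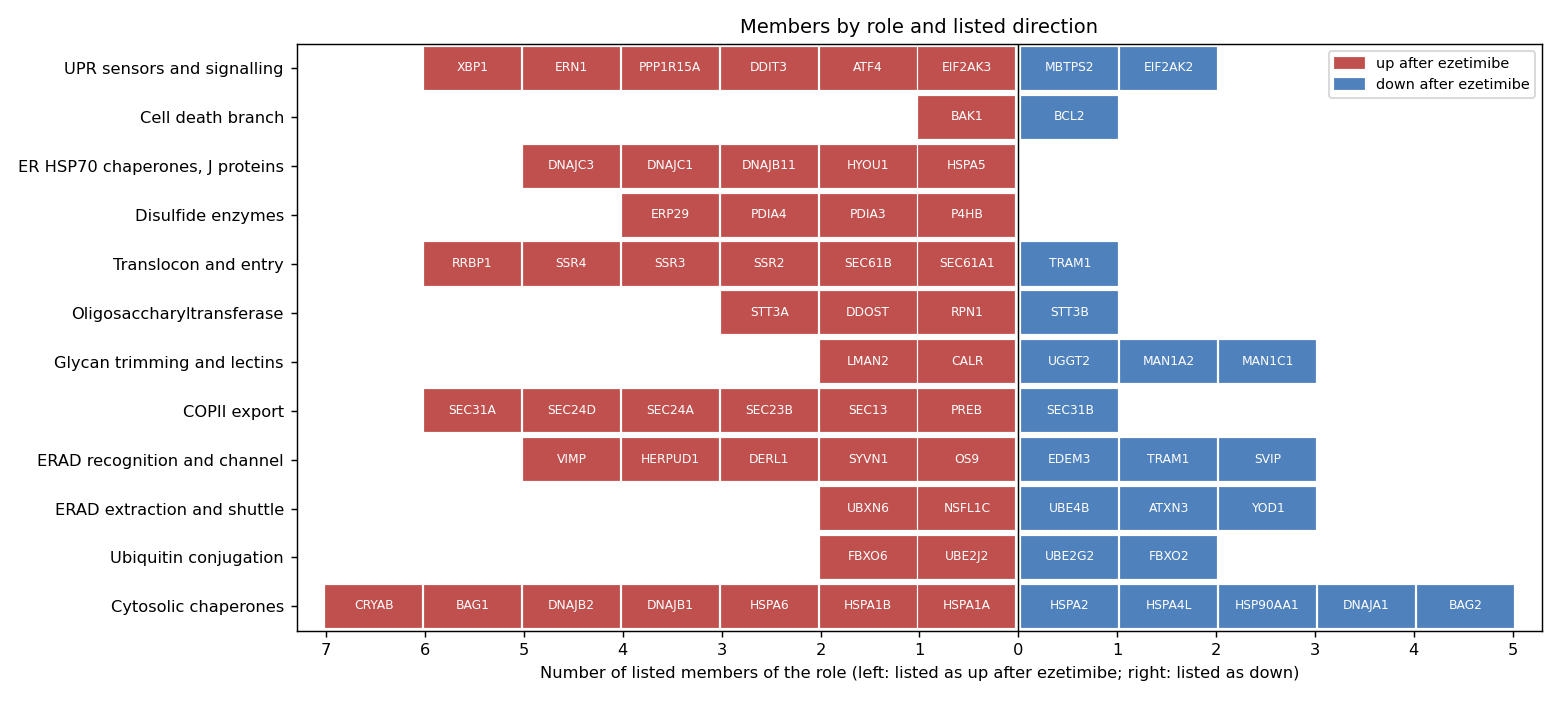
Members by role in the pathway (rows), with the genes listed as up after ezetimibe to the left of 0 and those listed as down to the right; the horizontal axis counts genes, and each tile is 1 gene. Disulfide enzymes (4 up) and ER chaperones of the HSP70 system (5 up) have no gene on the right, and cytosolic chaperones have 7 genes on the left and 5 on the right; TRAM1 stands under 2 roles.

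The promoters of several members listed as up carry matches to the DNA elements through which the unfolded protein response acts. The ER stress element, bound by ATF6 together with the CCAAT-binding factor NF-Y, consists of CCAAT, 9 bases of any kind and CCACG, and the ER stress element II, bound by ATF6 and by XBP1, consists of ATTGG, 1 base of any kind and CCACG. RefSeq promoter windows (GRCh38.p14), which reach from 250 bases before to 50 bases after each gene start, were matched for 60 of the 70 members, 43 listed as up and 17 listed as down. No window was used for CRYAB, DERL1, DNAJC1, PDIA3, RPN1, SEC24D, ATXN3, MAN1A2, STT3B and TRAM1. On either strand, the ER stress element was found in 3 members listed as up (6.98% of 43), namely HSPA5, CALR and XBP1, and in 0 of 17 listed as down. It was found in 21 of 15843 protein-coding genes with a window (0.133%), in 0 of 532 other genes listed as up and in 0 of 1207 other genes listed as down. The ER stress element II was found in HYOU1 and HERPUD1, both listed as up (4.65% of 43), in 0 members listed as down and in 15 of 15843 genes (0.0947%). These elements were sought as known elements of this response, so that matches among its genes carry no test. They are so rare over all genes that 0 of 17 members listed as down gives no contrast between the directions. Unlisted genes of the pathway were not counted apart, so whether the matches go with the pathway or with the direction was not tested. A match is a description of the sequence and does not show that a factor binds there.

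The upstream stretches around these matches are shown 5′ to 3′ on the strand of the gene, because they hold the elements counted above. Capitals mark the fixed bases of the element. Each stretch ends at most 60 bases from the match, within the window, and stops before any exon annotated in GENCODE release 29. CALR and HERPUD1 were added after their matches were seen.
HSPA5 (chr9:125241344-125241469, minus strand): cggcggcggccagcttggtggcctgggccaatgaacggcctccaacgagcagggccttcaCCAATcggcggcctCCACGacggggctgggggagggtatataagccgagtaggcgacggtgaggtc
XBP1 (chr22:28800598-28800681, minus strand): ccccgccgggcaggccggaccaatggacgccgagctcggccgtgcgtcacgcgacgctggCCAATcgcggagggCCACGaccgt
CALR (chr19:12938359-12938462, plus strand): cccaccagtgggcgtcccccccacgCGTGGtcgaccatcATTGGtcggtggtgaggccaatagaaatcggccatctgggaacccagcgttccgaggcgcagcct
HERPUD1 (chr16:56931965-56932047, plus strand): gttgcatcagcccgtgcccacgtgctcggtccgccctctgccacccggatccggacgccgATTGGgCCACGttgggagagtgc
HYOU1 (chr11:119057214-119057344, minus strand): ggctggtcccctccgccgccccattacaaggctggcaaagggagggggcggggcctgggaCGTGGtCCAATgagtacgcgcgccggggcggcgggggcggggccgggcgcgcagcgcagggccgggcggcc
The match lies from base -66 to -48 before the gene start in HSPA5, from -52 to -34 in XBP1 and from -117 to -107 in HERPUD1, all on the strand of the gene. In CALR (-225 to -207) and in HYOU1 it lies on the opposite strand, so that the capitals read as its reverse complement. HYOU1 holds the ER stress element II at 2 places, from -79 to -69 as shown and from -185 to -175.

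Further elements were counted in the same windows. The unfolded protein response element, an XBP1 and ATF6 site searched as TGACGTGG or TGACGTGA on either strand, was found in 4 members listed as up (HYOU1, SEC24A, SSR3 and SSR4; 9.30% of 43), in 0 of 17 listed as down and in 263 of 15843 genes (1.66%). Among other listed genes it was found in 15 of 532 up (2.82%) and in 20 of 1207 down (1.66%). At such rates 0 of 17 members listed as down gives no contrast between the directions. In HYOU1 the element lies from -188 to -181 and overlaps the farther ER stress element II. The sites of SSR3 and SSR4 lie in windows 3 and 2 of these genes. Those of SEC24A and SSR4 overlap annotated exons. The CCAAT box, the part of the ER stress element that NF-Y binds and therefore also present in each match of that element, was found in 29 of 43 members listed as up (67.4%) and 8 of 17 listed as down (47.1%). Over all 15843 genes it was found in 42.1%. The composite element of ATF4, searched as TGATGNAAT on either strand, was found in 0 of the 60 members with a window and in 139 of 15843 genes (0.877%); its letters are not in these windows, which says nothing on ATF4 itself.

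**Figure D2:**
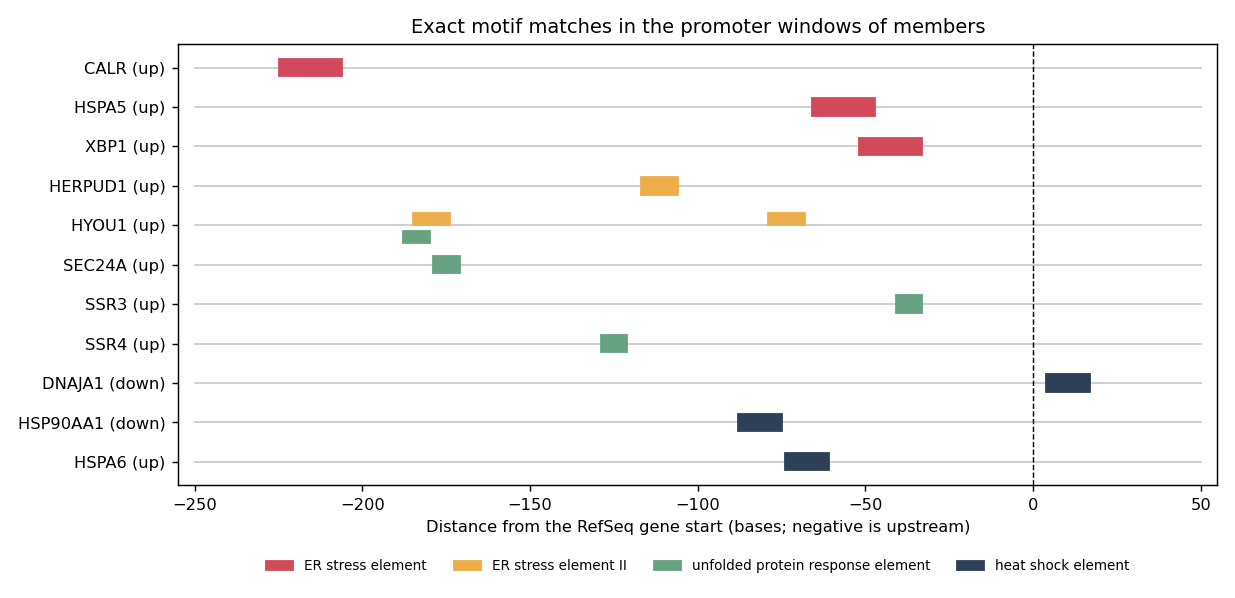
Positions of exact motif matches (coloured boxes) in the promoter windows of members, with the distance from the RefSeq gene start in bases on the horizontal axis and 1 gene per row, its listed direction in brackets; CCAAT boxes are not drawn. The ER stress elements of CALR, HSPA5 and XBP1 and the elements II of HERPUD1 and HYOU1 all lie upstream of genes listed as up; the heat shock element is found in 1 gene listed as up and 2 listed as down.

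In the authors' deposited table the sensors and signalling factors of the unfolded protein response were mostly listed as up. Of 17 genes on this list 8 were listed, 6 as up and 2 as down. EIF2AK3, which encodes PERK, the kinase that slows translation by phosphorylating the initiation factor eIF2, was up. ATF4, the transcription factor whose translation rises when eIF2 is phosphorylated (ENSG00000128272; GRCh38 chr22:39519695-39522685), was up, as was DDIT3, which encodes the transcription factor CHOP. PPP1R15A, which encodes GADD34, the subunit that directs a phosphatase back to eIF2, was up as well, so that the kinase and the phosphatase subunit of this loop were listed in the same direction. ERN1, which encodes the kinase and ribonuclease IRE1, and XBP1, whose messenger RNA IRE1 splices (ENSG00000100219; chr22:28794555-28800597), were both up. MBTPS2, the site-2 protease that releases ATF6 and the sterol factor SREBP from the Golgi membrane, was listed as down. EIF2AK2, which encodes PKR, an eIF2 kinase that responds to double-stranded RNA, was also down, opposite to EIF2AK3. ATF6, ATF6B, MBTPS1 and the other eIF2 kinase genes EIF2AK1 and EIF2AK4 were not listed; a gene can be missing because it did not pass the authors' threshold, was not detected or is outside the pathways. Splicing of XBP1 and phosphorylation of eIF2 are not measured by such a table.

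Of the genes of cell death placed after these sensors, 2 are members. BAK1, a pore former of the outer mitochondrial membrane, was up and BCL2, which holds such pore formers in check, was down. The stress kinases MAPK9 and MAPK10, which IRE1 signalling can activate, are no members and were both down.

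In the authors' deposited table no listed HSP70 chaperone or J protein of the ER, and no listed disulfide enzyme, was down. All 5 listed genes of the 8 on the ER chaperone list were up: HSPA5, which encodes the HSP70 chaperone BiP (ENSG00000044574; chr9:125234853-125241330), HYOU1, which encodes its relative GRP170, and the J proteins DNAJB11, DNAJC1 and DNAJC3, which deliver substrates to BiP or regulate it. HSP90B1, SIL1 and DNAJC10 of this list were not listed. All 4 listed genes of the 8 disulfide enzymes were up, namely P4HB, PDIA3 and PDIA4, protein disulfide isomerases, and ERP29, a relative without their redox activity. The oxidases ERO1A and ERO1B, which recharge these enzymes, were not listed. HSPA5 and HYOU1 are among the genes whose promoter stretches are shown above, with an ER stress element and the element II.

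Genes for entry into the ER and for export from it were also mostly listed as up in the authors' deposited table. At the translocon 6 of 7 listed genes were up: the pore subunit SEC61A1, its partner SEC61B, the signal sequence receptor subunits SSR2, SSR3 and SSR4, and the ribosome-binding protein RRBP1. TRAM1, which helps some chains into the channel, was down. For the COPII coat, 6 of 7 listed genes were up. They were PREB, which starts coat assembly by activating SAR1, the inner coat genes SEC23B, SEC24A and SEC24D, and the outer coat genes SEC13 and SEC31A. SEC31B, a paralogue of SEC31A, was down.

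Glycan attachment and trimming were split in the authors' deposited table. Of the oligosaccharyltransferase, which attaches the N-glycan, the shared subunits RPN1 and DDOST and the catalytic subunit STT3A were up, while the alternative catalytic subunit STT3B was down. STT3A acts on chains as they enter the ER, and STT3B mainly on sites that were missed. Of 5 listed genes of glycan trimming and lectins, 2 were up, the lectin chaperone CALR (ENSG00000179218; chr19:12938578-12944489) and the cargo lectin LMAN2. The other 3 were down, namely UGGT2, which re-glucosylates misfolded glycoproteins, and the mannosidases MAN1A2 and MAN1C1, which trim glycans in the Golgi. CANX, the membrane-bound partner of CALR, was not listed.

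ERAD genes of the ER lumen and membrane were listed as up in 5 of 8 cases in the authors' deposited table, and those of extraction into the cytosol in 2 of 5. Those of recognition and retrotranslocation listed as up were SYVN1, which encodes the ubiquitin ligase HRD1, the lectin OS9, the channel protein DERL1, the scaffold HERPUD1 (ENSG00000051108; chr16:56932048-56944863) and VIMP, now named SELENOS, which recruits the segregase p97. EDEM3, a mannosidase that marks glycoproteins for degradation, SVIP, a small p97-binding protein that inhibits ERAD, and TRAM1, which stands under this role too, were down. Of the extraction and shuttle genes, the p97 cofactors NSFL1C and UBXN6 were up, and UBE4B, which extends ubiquitin chains, and the deubiquitinases ATXN3 and YOD1 were down. Among the conjugating enzymes UBE2J2 was up and UBE2G2 down, and UBE2E3, which the table does not list under this pathway, was down as well. CUL1 and RBX1, ubiquitin ligase subunits left out of the members, were also down. Of the F-box proteins that recognise glycans, FBXO6 was up and FBXO2 down. VCP, which encodes p97 itself, was not listed.

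Cytosolic chaperones were split within families in the authors' deposited table. Of 12 listed genes 7 were up. HSPA1A and HSPA1B, the stress-inducible HSP70 genes, were up, but they are near-identical copies 9789 bases apart on chromosome 6, and reads may not be assigned to either with certainty. HSPA6, another inducible HSP70 gene, was up, as were the J protein genes DNAJB1 and DNAJB2, the HSP70 cofactor BAG1 and the small heat shock protein CRYAB. The 5 listed as down were HSP90AA1, the inducible cytosolic HSP90 gene, HSPA2, an HSP70 gene best known from the testis, HSPA4L, of the HSP110 family, the J protein DNAJA1 and the cofactor BAG2. Thus HSPA1A, HSPA1B and HSPA6 were listed opposite to HSPA2, DNAJB1 opposite to DNAJA1 and BAG1 opposite to BAG2.

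The heat shock element, the site of heat shock factors, was searched as GAA, 2 bases of any kind, TTC, 2 bases of any kind and GAA, on either strand, and was found in genes of both directions. It was in 1 of 43 members listed as up (HSPA6, 2.33%) and in 2 of 17 listed as down (DNAJA1 and HSP90AA1, 11.8%), against 85 of 15843 genes (0.537%). With 1 mismatch allowed, it was in 7 of 43 members up (16.3%), among them HSPA1A, HSPA1B and DNAJB1. It was then in 4 of 17 members down (23.5%), against 6.56% of all genes. The exact sites, chosen after the matches were seen, are shown because genes listed in opposite directions share the element. Capitals mark the fixed bases.
HSPA6 (chr1:161524466-161524478, plus strand): TTCgcGAAagTTC
HSP90AA1 (chr14:102087120-102087132, minus strand): TTCcgGAAggTTC
DNAJA1 (chr9:33025276-33025288, plus strand): GAActTTCcaGAA
The site lies from -74 to -62 in HSPA6 and from -88 to -76 in window 2 of HSP90AA1, in both on the opposite strand. In DNAJA1 it lies from base 4 to 16 after the start. The sites of HSP90AA1 and DNAJA1 overlap annotated exons.

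Grouped by role, the 39 members for entry, folding, glycan attachment and trimming, ERAD recognition and export were listed as up in 31 cases and down in 8 (79.5% up, 63.5 to 90.7). They include MAN1A2 and MAN1C1, which act in the Golgi and were both down. The 21 cytosolic chaperones, extraction factors and ubiquitin genes were up in 11 cases and down in 10 (52.4%, 29.8 to 74.3). The 10 signalling and death genes were up in 7 cases and down in 3. This grouping was formed after the directions were seen and the intervals overlap, so that no difference between the groups is claimed.

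Genes that the authors' deposited table lists under neighbouring pathways were counted without the members. Protein export, mostly genes of the signal recognition particle, its receptor and signal peptidase, had 4 further genes up and 3 down (57.1% up, 18.4 to 90.1). SNARE interactions in vesicular transport had 9 up and 6 down (95% interval of the share up 32.3 to 83.7). Proteasome had 6 up and 6 down, and N-Glycan biosynthesis 4 up and 9 down (30.8%, 9.09 to 61.4). Ubiquitin mediated proteolysis had 11 up and 40 down (21.6%, 11.3 to 35.3). Of 16 textbook targets of ATF4 and CHOP outside the pathway, 10 were listed, all as up: TRIB3, CHAC1, ASNS, SESN2, DDIT4, CTH, SLC3A2, CEBPB, GDF15 and NUPR1. This list was chosen by hand with earlier results known, and the direction depends on it: SLC7A5, SLC38A2 and PSPH, known targets of ATF4, and PMAIP1, a death gene of the same response, are not on it and were listed as down. Of 18 enzymes that build the N-glycan precursor 7 were listed, ALG2 and DOLPP1 as up and ALG6, ALG8, ALG10, ALG13 and DPM3 as down. All 7 are among the N-Glycan biosynthesis genes counted above. So is ALG10B, a paralogue of ALG10 that is not on this list and was down. Of 13 genes of the signal recognition particle, its receptor and signal peptidase 6 were listed, with SRP68, SRPRA, SRPRB and SEC11C up and SRP9 and SPCS3 down. These 6 are the further Protein export genes counted above without IMMP2L, which is not on this list and was down.

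**Figure D3:**
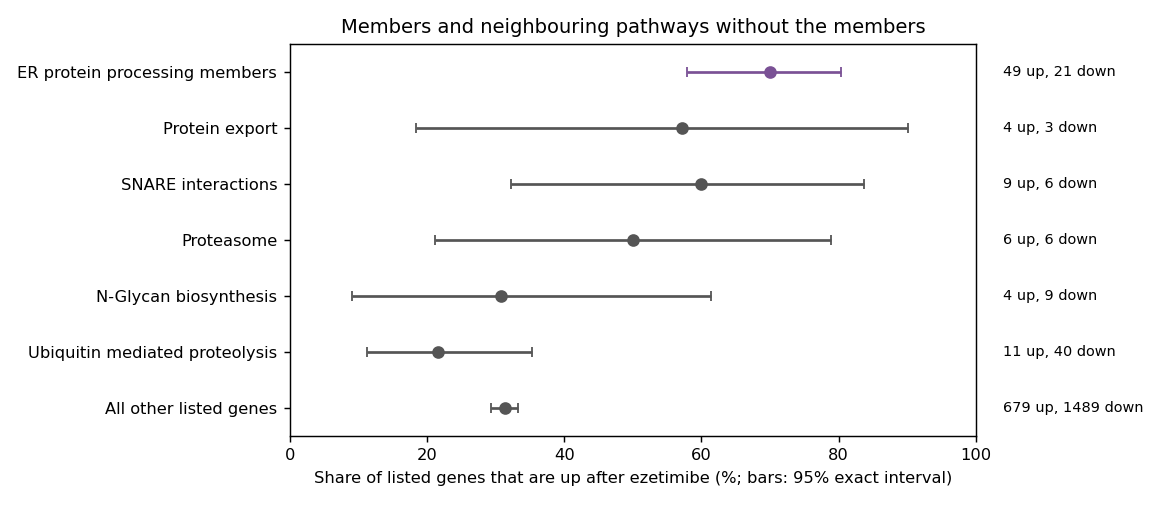
Share of listed genes that are up after ezetimibe (horizontal axis, percent) for the 70 members, for 5 neighbouring KEGG pathways without the members and for all other listed genes; points are shares and bars exact 95% intervals for counting error among genes. The members stand at 70.0%, Ubiquitin mediated proteolysis at 21.6% and all other listed genes at 31.3%.

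In the authors' deposited table, 35 of the 70 members were listed under no other pathway, 24 of them up and 11 down. ATF4 (32 pathways), BAK1 (27) and BCL2 (36) were the 3 members under more than 20. The Antigen processing and presentation row shares 8 members, 6 up and 2 down, among them CALR, PDIA3 and HSPA5 as up and HSP90AA1 as down. The Apoptosis row shares 6, of which ATF4, DDIT3, EIF2AK3, ERN1 and BAK1 were up and BCL2 was down.

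Members listed as up and as down differed in the base composition and length of their transcripts, as listed genes do in general. The longest transcript had a median GC content of 51.4% in members listed as up (37.8 in DNAJB11 to 63.6 in UBXN6) and 38.7% in members listed as down (34.4 in SVIP to 60.5 in FBXO2). The medians were 55.5% in other genes listed as up and 43.7% in other genes listed as down. The median length of that transcript was 2946 bases in members up and 5087 bases in members down. The median gene span was 15045 bases in members up and 57856 bases in members down. Within each class of GC content the share up was higher among members than among other listed genes, as a description without a test. Below 45% GC, 9 of 23 members were up (39.1%, 19.7 to 61.5), against 84 of 931 other genes (9.02%, 7.26 to 11.1). From 45 to 55%, 23 of 28 members were up (82.1%, 63.1 to 93.9), against 236 of 618 (38.2%, 34.3 to 42.2). From 55% upward, 17 of 19 members were up (89.5%, 66.9 to 98.7), against 359 of 618 (58.1%, 54.1 to 62.0). In promoters the order was turned round among members: the median GC content of the windows was 64.8% in 43 members up and 68.7% in 17 members down. Over all listed genes with a window it was not, with medians of 65.2% in 575 genes up and 64.3% in 1224 genes down. The part of base composition in the listed directions was not tested.

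**Figure D4:**
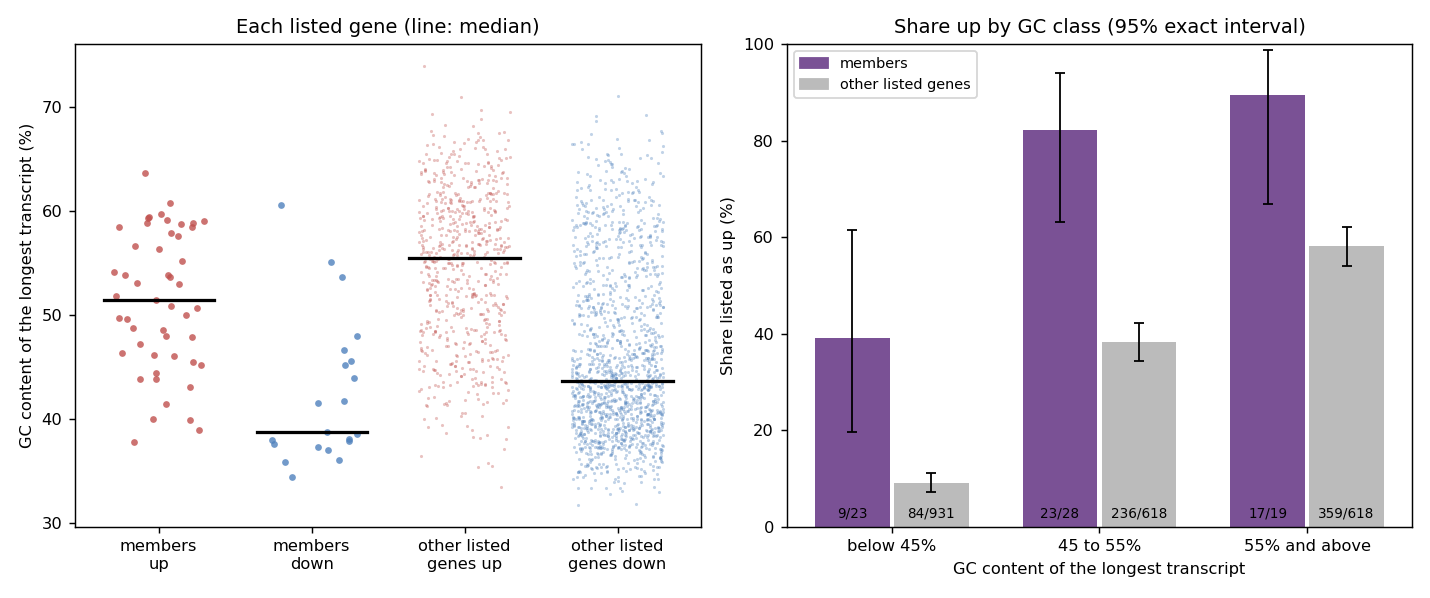
Left, GC content of the longest GENCODE transcript (percent) of each listed gene, with the median as a line, for members and other listed genes by direction. Right, share listed as up (percent) by GC class for members and other listed genes, with exact 95% intervals and the counts in the bars; the members stand at 39.1, 82.1 and 89.5% from the lowest to the highest class, and the other listed genes at 9.02, 38.2 and 58.1%.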

How the data were processed

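RNA of 1 ezetimibe culture and 1 control culture was sequenced. The submitters' processing notes name HISAT2 2.0.4 and StringTie 1.3.0, and the deposited comparison names edgeR as the authors' tool. Settings, genome build and the threshold for changed genes are not stated in these sources. The deposited table holds, for each of 327 KEGG pathways and per the file headers, changed genes with a direction and their numbers, the rich factor (an enrichment ratio), and the authors' p-value and q-value, both of which take genes as units. In all 327 rows the gene list was as long as its stated number.

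The members and the role lists were chosen with earlier results of these data known. Every member is named with its direction; genes outside the pathway come from 3 lists, and promoters are shown for sensors, ER chaperones and disulfide enzymes with a stress element, plus those named as added later. List symbols were matched through the table's symbols and current symbols of the Ensembl IDs. Shares have exact Clopper-Pearson 95% intervals. GC content, length and coordinates come from GENCODE release 29 (GRCh38), for all 70 members. Promoter windows come from RefSeq; 6 motifs were sought in every window of a gene, after the search was tested on simulated data. The plan had proteins of 2 members, which were not used here. Python 3.11.15, SciPy 1.17.1 and Matplotlib 3.10.9 were used.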

Additional observations from a re-analysis of the deposited data

How the results depend on the processing

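The share up of the members was 66.2% over the whole pathway row, and it was 68.75 to 70.15% without members under more than 20 pathways, without HSPA1A and HSPA1B, or without members of the Apoptosis row; each of these changes few of the 70 genes and is no check of stability. With TRAM1 under its first role alone, the share up of ERAD recognition was 71.4% instead of 62.5%, and no other role has a shared member. Motif counts depended on the search. Sought on the strand of the gene alone, the ER stress element was in 2 members (HSPA5 and XBP1) instead of 3 and the ER stress element II in 1 instead of 2. The unfolded protein response element was then in 2 instead of 4, the heat shock element in 1 instead of 3 and the CCAAT box in 21 instead of 37. With 1 mismatch allowed, the ER stress element was in 9 members (15%), against 2.32% of all genes. The element II was in 7 members (11.67%), against 1.799% of all genes. The heat shock element was in 11 members (18.33%), against 6.558%. The ATF4 element was in 6 members (10%), against 15.11%. The unfolded protein response element was in 20 members (33.33%), against 33.9%, and the CCAAT box in 59 (98.33%), against 98.91%. Loose matches were thus common over all genes for the CCAAT box and the unfolded protein response element, and rare for the ER stress element and the element II. In the first window of each gene alone, an alternative chosen after seeing the data, the unfolded protein response element was in 2 members. The median GC content of members up minus that of members down was 12.7 percentage points in transcripts of all 70 members. Among the members with a promoter window it was 11.3 in transcripts and -3.84 in the windows. The cause was not tested. No paired analysis was possible because there is 1 library per condition. Read depth is unknown, so its limits on the list cannot be stated.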

Other observations

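On the chromosomes, 3 pairs of members lie within 100000 bases of each other. FBXO6, listed as up, and FBXO2, listed as down, lie 8339 bases apart on chromosome 1 on opposite strands. DNAJC3, listed as up, and UGGT2, listed as down, lie 6591 bases apart on chromosome 13, also on opposite strands. HSPA1A and HSPA1B were both up.

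With 1 mismatch allowed, the ER stress element was also present in the promoter windows of DDIT3, DNAJC3, HERPUD1, HYOU1, LMAN2 and SYVN1, so that 9 of 43 members listed as up (20.9%) held it in this form, against 0 of 17 listed as down. It was present in 14 of 532 other genes listed as up (2.63%), in 28 of 1207 other genes listed as down (2.32%) and in 367 of 15843 protein-coding genes (2.32%). At this rate over all genes, 0 of 17 members listed as down gives no contrast between the directions. These matches among genes of the response carry no test. Whether they go with the pathway or with the direction was not tested. The other elements in this form were found in members of both directions. The element II was in 6 of 43 members up and in 1 of 17 down (UGGT2). The unfolded protein response element was in 37.2% of members up and 23.5% of members down, against 42.1% of other genes up. The ATF4 element was in 6.98% of members up and 17.65% of members down.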
